A study of Homo sapiens with 9 samples.

Results

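The 36 genes described here carry glucose into the cell, break it down to pyruvate and lactate, and belong to the response to low oxygen. They were taken by symbol from the count table, 36 of its 61209 gene symbols, by a list of pathway genes that sets no limit on any value but was drawn up with earlier results of these data known. They comprise 2 glucose transporters, 15 glycolytic enzymes, 2 lactate dehydrogenase subunits, 2 lactate transporters, 3 PFKFB enzymes, 4 hypoxia-inducible factor (HIF) subunits and prolyl hydroxylases, and 8 other targets of HIF. All 36 had at least 1 count, and 35 passed the filter on low counts and were among the 16976 genes tested. The exception was CA9, the hypoxia-induced carbonic anhydrase, with 8 counts in all 9 libraries together.

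Bulk polyA RNA of GIST-T1 cells (T1), an imatinib-sensitive line of human gastrointestinal stromal tumor with a deletion in exon 11 of the receptor tyrosine kinase KIT, was sequenced in 3 groups of 3 libraries. All cells received an siRNA with Lipofectamine and were collected after 48 h. The siNC group (libraries S1 to S3) had a non-target siRNA, the siERRα group (S4 to S6) an siRNA against ESRRA, the gene of estrogen-related receptor alpha (ERRα), and the imatinib group (S16 to S18) the non-target siRNA with 50 nM imatinib, an inhibitor of KIT. All values come from 1 cell line, and no source says that the libraries of a group were separate cultures. The p-values therefore cover only how far these libraries spread, which may be technical.

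Glycolysis turns glucose into pyruvate, and its flux is set mainly at glucose uptake, hexokinase and phosphofructokinase. In normoxia the prolyl hydroxylases mark the HIF alpha subunits for breakdown, and in hypoxia the subunits persist and turn on most of the genes above. ERRα is known chiefly for its control of mitochondrial oxidative genes, and oncogenic KIT signaling through PI3K and AKT is known to raise glucose uptake in GIST.

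Library totals ranged from 37527236 to 49363002 counts. ESRRA averaged 42.1 ± 2.24 CPM (counts scaled to a common TMM-normalized library total, as CPM, SD, n = 3) in siNC, 1.17 ± 0.356 CPM in siERRα and 32.7 ± 2.69 CPM with imatinib. All 9 GIST markers looked for were detected, and their levels moved in both directions with imatinib. KIT averaged 1304 CPM in siNC and 1525 CPM with imatinib, ANO1 384 and 585, ETV1 247 and 362, CD34 1288 and 995, and FOXF1 324 and 292. The remaining markers were all higher with imatinib: PRKCQ averaged 12.5 and 20.7 CPM, GPR20 42.8 and 58.4, BARX1 32.4 and 37.5, and HAND1 184 and 248. Of 12 markers of leukocytes, epithelium, endothelium and red cells, all averaged under 2 CPM in each group, and the leukocyte gene PTPRC had 1 count in all. Mitochondrial transcripts took 0.846% to 1.03% of counts in siNC and siERRα and 1.48% to 1.54% with imatinib, and the 15 glycolytic enzymes with both lactate dehydrogenase subunits took 0.762% to 0.819% and 0.654% to 0.709%. The part of these shifts in the results with imatinib was not tested. Library S5 stood apart in its group: the chi-square of its counts, divided by the degrees of freedom, was 16.5 against S4, whereas S4 and S6 gave 4.35. Spread was not confined to that group, as pairs of imatinib libraries gave 7.96 to 14.7 and pairs of siNC libraries 3.77 to 9.67.

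Short sequence elements that some members hold are shown first, since the values can be read beside them. One was the heptamer ATGTTCT, which earlier work on these data had picked out in 3′ UTRs, so it was chosen after the values were seen. The sources used here do not give the siRNA sequences. Taking the 3′ UTR of each canonical transcript, it occurred in 6 of the 36 members and in 16.7% of 19195 protein-coding genes (GENCODE 44, GRCh38). All 7 sites lay in the last exon, and each is shown 5′ to 3′ on the gene's strand with the heptamer in capitals and 10 bases on each side.
PGAM1 (exon 4, chr10:97433327-97433353, + strand): tttctgaatcATGTTCTagttgcttga
EPAS1 (exon 16, chr2:46384871-46384897, + strand): ctgttctgaaATGTTCTtaaattttgt
EGLN3 (exon 5, chr14:33925408-33925434, − strand): caatttccagATGTTCTtaatccaggg
HIF1A, first site (exon 15, chr14:61747248-61747274, + strand): cttttttagtATGTTCTttaatgctgg
HIF1A, second site (exon 15, chr14:61747906-61747932, + strand): ttaaacctaaATGTTCTgcctaccctg
PGK1 (exon 11, chrX:78128176-78128202, + strand): aagagcatttATGTTCTgaaggaattt
HK2 (exon 18, chr2:74893126-74893152, + strand): ttgaatgtttATGTTCTcagaatcagg
Of the 6 members that were lower after ERRα knockdown, 4 held the heptamer (PGAM1, EPAS1, EGLN3 and HIF1A), of the 4 that were higher 1 held it (PGK1), and of the 25 that passed no test 1 held it (HK2). Over all tested protein-coding genes with a 3′ UTR the heptamer was likewise more common among lower genes after knockdown, in 733 of 1968 lower (37.2%), 219 of 1777 higher (12.3%) and 1466 of 8995 other genes (16.3%), so the split among the members is not shown to be particular to them. With imatinib it stood in 3 of the 15 lower, 2 of the 8 higher and 1 of the 12 other members, and over all genes in 21.0%, 18.5% and 18.3%. Its part in the changes was not tested. In the siERRα group, loss of ERRα and other effects of the siRNA cannot be told apart.

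Promoters of 30 of the 36 members, from 250 bases before to 50 bases after the start, were found in the RefSeq table (GRCh38.p14). SLC2A3, SLC16A1, PFKFB2, VEGFA, BNIP3L and NDRG1 had no entry. The hypoxia response core ACGTG or GCGTG, searched on both strands, occurred in 23 of 30 member promoters (76.7%), in 62.7% of 11277 promoters of genes tested and in 48.4% of all 27305 promoters. Taken alone, ACGTG occurred in 40.0% of member promoters against 26.4% of those of genes tested, and GCGTG in 53.3% against 50.4%. The list includes genes chosen as HIF targets, so these shares are a description only. The longer form TACGTG, which contains ACGTG, occurred in 5 of 30 (16.7%: ALDOC, ENO2, EGLN1, CA9 and ANKRD37) and in 3.33% of promoters of genes tested. The other longer form searched, GACGTG, was less set apart. It occurred in 4 of 30 (13.3%: HK2, ALDOA, PGK1 and LDHA) and in 10.4% of promoters of genes tested. The ERR element AAGGTCA occurred in 2 of 30 (6.67%: ALDOC and TPI1) and in 2.46% of promoters of genes tested. The 2 ERR elements, which are the letters ERRα is known to bind, and 3 hypoxia cores of enzyme genes that moved with imatinib are shown 5′ to 3′ on the strand where the motif reads, with the motif in capitals.
ALDOC, AAGGTCA (chr17:28577085-28577111, − strand): aaatgaacgcAAGGTCAtggccaggct
TPI1, AAGGTCA (chr12:6867529-6867555, − strand): cgaggcgctgAAGGTCAgtgtctgcgc
ALDOC, ACGTG within TACGTG (chr17:28576909-28576933, + strand): tcgcagagctACGTGactcctccgg
HK2, ACGTG (chr2:74834069-74834093, − strand): cggatcagtgACGTGcgcacgccca
LDHA, ACGTG (chr11:18394480-18394504, − strand): gggccggcggACGTGcgggaaccca
A match describes the letters only. Neither holder of AAGGTCA passed the test after ERRα knockdown. ALDOC changed by −0.13 on the log2 scale (edgeR adjusted p = 0.163) and TPI1 by −0.04 (edgeR adjusted p = 0.688).

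To see how much of the pathway moved after ERRα knockdown, siERRα was compared with siNC. At an edgeR adjusted p under 0.05, 6 of 35 members were lower and 4 higher (28.6%), against 23.9% of all 16976 genes tested, of which 12.6% were lower and 11.4% higher. The median log2 fold change of the members was −0.01, and that of all genes tested 0.01. The lower members were PGAM1, SLC16A3, EGLN3, EPAS1, HIF1A and HK1, and the higher ones PFKM, PGK1, KDM3A and SLC16A1. With a log2 change of at least 0.5 as a further condition, 3 members were lower (PGAM1, SLC16A3 and, at the limit, EGLN3) and none was higher, against 5.28% and 1.98% of genes tested. DESeq2 also placed 3 and 0 members past both limits and limma-voom 2 and 0, while 4 members were higher at an unadjusted p under 0.05 in edgeR. The libraries of siERRα and siNC did not overlap for 15 of 35 members (42.9%), against 38.6% of genes tested.

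To see how KIT inhibition affected the same genes, imatinib was compared with siNC. At an edgeR adjusted p under 0.05, 15 of 35 members were lower and 8 higher (65.7%), against 41.7% of genes tested, of which 20.3% were lower and 21.4% higher. The members' median log2 fold change was −0.14, and that of all genes 0.00 (0.002). With a log2 change of at least 0.5, 5 were lower (SLC2A3, VEGFA, HK2, ADM and PFKP) and 5 higher (EPAS1, PFKFB4, PFKL, ALDOC and BNIP3L), against 7.02% and 10.6% of genes tested. The groups did not overlap for 25 of 35 members (71.4%), against 52.0% of genes tested. The share called over all genes depends on which genes are kept. In a fit of the 14818 genes with at least 10 counts in every library, 6829 were called with imatinib and 4049 after knockdown. Members were not matched by level to other genes. In bulk RNA, a lower level per cell and fewer cells that express a gene cannot be told apart. Both comparisons share the 3 siNC libraries, so siERRα was also set directly against imatinib.

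In that direct comparison 9 of 35 members were lower in siERRα than with imatinib and 15 higher (68.6%), against 52.2% of genes tested, of which 26.6% were lower and 25.6% higher. The groups did not overlap for 26 of 35 members (74.3%), against 56.9% of genes tested, and the median log2 difference of the members was 0.11. The widest gaps were those of SLC2A3, VEGFA and HK2, higher in siERRα by 1.45, 1.22 and 0.83 on the log2 scale, and of EPAS1, SLC16A3 and EGLN3, with differences of −1.21, −0.84 and −0.72 (edgeR adjusted p between 1.63e-11 and 5.42e-07).

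**Figure D1:**
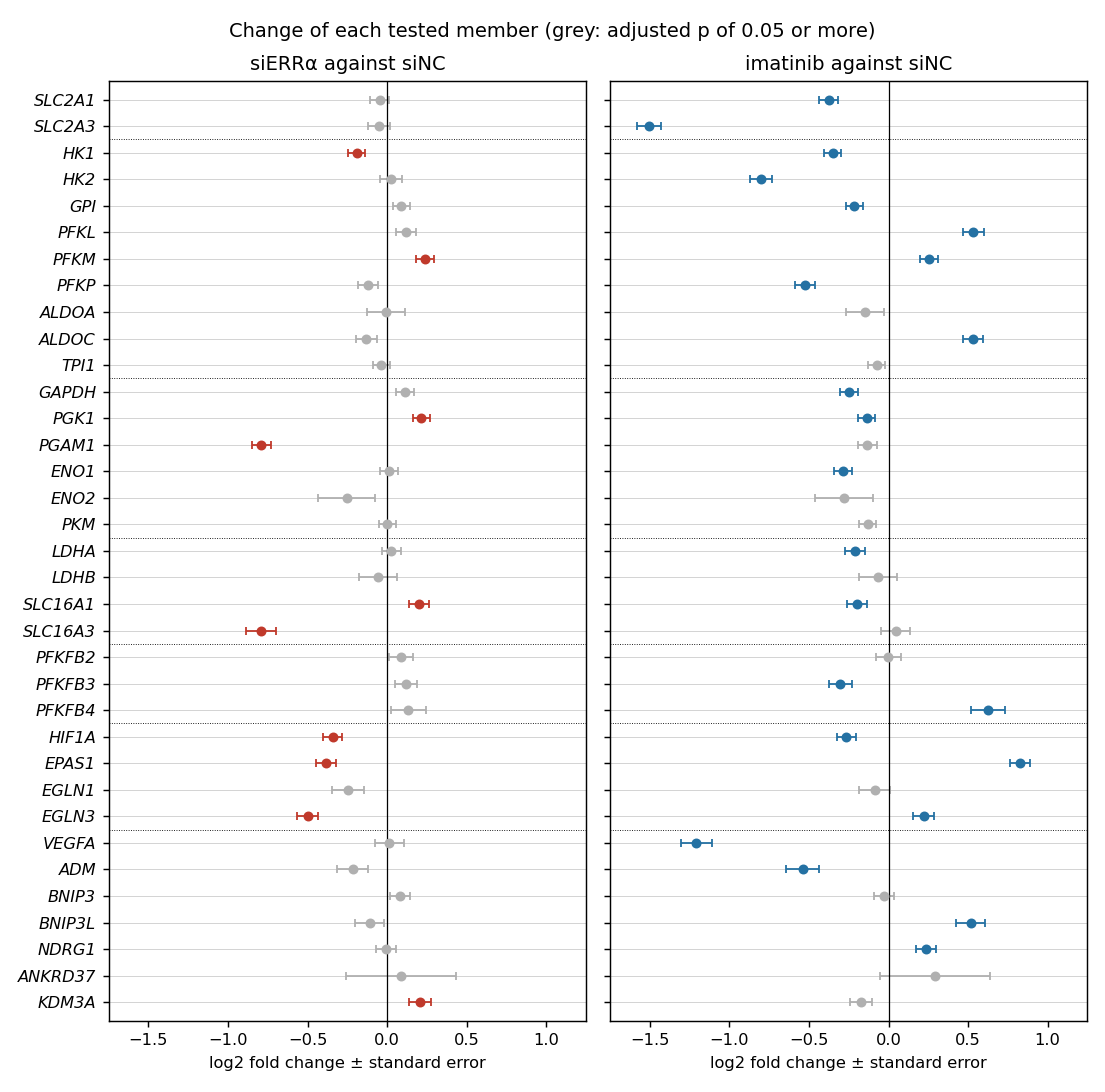
Log2 fold change (x axis, bars are standard errors) of each of the 35 tested members (y axis, dotted lines part the roles) in siERRα against siNC (left) and imatinib against siNC (right), coloured where the edgeR adjusted p was under 0.05. After knockdown the 10 coloured points run from −0.79 to 0.24, and with imatinib the 23 coloured points run from −1.50 to 0.83.

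Both glucose transporters fell with imatinib and neither passed the test after knockdown. SLC2A3 (GLUT3, a high-affinity glucose transporter, chr12:7919230-8019007) stood at 32.8, 31.6 and 34.7 CPM in siNC, 30.7, 33.7 and 31.3 CPM in siERRα and 11.7, 11.1 and 12.2 CPM with imatinib. Every imatinib library was therefore far below all others, while siERRα and siNC overlapped. The log2 fold change with imatinib was −1.50 (standard error 0.0754, edgeR adjusted p = 2.86e-11), a fall to 0.353 of the control level, and after knockdown it was −0.05 (95% interval −0.20 to 0.09).

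SLC2A1 (GLUT1, the general glucose transporter, chr1:42925353-42958893) stood at 127, 127 and 121 CPM in siNC, 127, 113 and 124 CPM in siERRα and 100.2, 90.7 and 98.8 CPM with imatinib. Its imatinib libraries again lay below the other 6. The fall was smaller than that of SLC2A3, with a log2 fold change of −0.38 (standard error 0.0604, edgeR adjusted p = 5.59e-05), and after knockdown the 95% interval ran from −0.17 to 0.08. As a share of the 2 transporters' counts per exon length, SLC2A3 made up 19.4% ± 1.16 (SD, n = 3) in siNC, 19.4% ± 1.73 in siERRα and 9.92% ± 0.242 with imatinib.

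Among the 9 enzyme genes from hexokinase to triose phosphate isomerase, imatinib lowered 4 and raised 3 (77.8% called, against 41.7% of all genes tested). Knockdown lowered 1 and raised 1 (22.2%, against 23.9%). Of the phosphofructokinase isozymes, PFKL and PFKM rose with imatinib and PFKP fell, while both hexokinases fell. HK2, the insulin- and hypoxia-responsive hexokinase (chr2:74834127-74893359), stood at 44.5, 39.1 and 41.4 CPM in siNC, 42.0, 44.1 and 41.1 CPM in siERRα and 25.0, 22.4 and 24.3 CPM with imatinib. All imatinib libraries lay below the rest, with a log2 fold change of −0.80 (standard error 0.0712, edgeR adjusted p = 4.28e-08).

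HK1, the hexokinase of most tissues (chr10:69269984-69401884), was lower in both treatments. It stood at 266, 272 and 267 CPM in siNC, 237, 233 and 234 CPM in siERRα and 211, 199 and 221 CPM with imatinib. The 3 groups did not overlap. The log2 fold change was −0.19 after knockdown (standard error 0.0524, edgeR adjusted p = 0.0109) and −0.35 with imatinib (standard error 0.0525, edgeR adjusted p = 2.54e-05). Per exon length HK2 made up 15.3% ± 0.958 of hexokinase counts in siNC, 17.3% ± 0.589 in siERRα and 11.7% ± 0.402 with imatinib. By canonical transcript length these shares were 9.05%, 10.4% and 6.79%. GPI, which turns glucose 6-phosphate into fructose 6-phosphate, fell with imatinib from 279 to 240 CPM on average (log2 fold change −0.22, edgeR adjusted p = 0.00346).

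Of phosphofructokinase, the committed step, PFKL gained and PFKP lost share with imatinib, while the share of PFKM hardly moved. PFKL, the liver form (chr21:44300051-44327376), stood at 224, 264 and 235 CPM in siNC, 265, 247 and 273 CPM in siERRα and 344, 332 and 370 CPM with imatinib, so only the imatinib libraries stood clear of the controls. Its log2 fold change with imatinib was 0.53 (standard error 0.0651, edgeR adjusted p = 2.34e-06). PFKP, the platelet form (chr10:3066333-3137718), moved the other way, from 95.3, 98.2 and 95.5 CPM in siNC to 67.2, 61.0 and 72.4 CPM with imatinib (log2 fold change −0.53, standard error 0.0629, edgeR adjusted p = 1.82e-06).

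PFKM, the muscle form, was the upper-glycolysis gene that rose in both treatments. Its libraries ran from 87.5 to 93.8 CPM in siNC, from 101 to 110 CPM in siERRα and from 104 to 113 CPM with imatinib. The log2 fold changes were 0.24 (edgeR adjusted p = 0.00518) and 0.26 (edgeR adjusted p = 0.00155), and siERRα and imatinib differed by −0.02 (standard error 0.0579, edgeR adjusted p = 0.817). PFKM shares 516 exon bases with SENP1 on the opposite strand, whose own changes were 0.01 and 0.00. Of the counts per exon length of the 3 isoforms, PFKL took 52.1% ± 1.46 in siNC and 62.5% ± 1.08 with imatinib, PFKP 24.0% ± 0.977 and 13.8% ± 0.711, and PFKM 24.0% ± 0.488 and 23.8% ± 1.78. In siERRα the shares were 53.0% ± 1.48 for PFKL, 20.6% ± 0.358 for PFKP and 26.5% ± 1.38 for PFKM.

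ALDOC, the brain-type aldolase (chr17:28573115-28576948), rose with imatinib. It stood at 55.4, 64.5 and 57.5 CPM in siNC, 55.1, 52.2 and 54.5 CPM in siERRα and 82.6, 89.1 and 84.6 CPM with imatinib. Every imatinib library exceeded every control, and every siERRα library lay just below them (log2 fold change with imatinib 0.53, standard error 0.0653, edgeR adjusted p = 2.55e-06). ALDOA, the muscle-type aldolase, passed neither test, with changes of −0.01 and −0.15, and its libraries within a group were spread wider, from 93.2 to 129 CPM in siERRα. ALDOA shares 1639 exon bases with a second annotated gene on its strand, so some of its reads may not have been assigned to it. TPI1, triose phosphate isomerase, changed by −0.04 and −0.08 and passed neither test. ALDOC made up 42.9% ± 0.925 of aldolase counts per exon length in siNC and 54.6% ± 3.46 with imatinib, but 34.4% and 45.6% when lengths of the canonical transcripts were used, so which aldolase led with imatinib depended on the length.

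**Figure D2:**
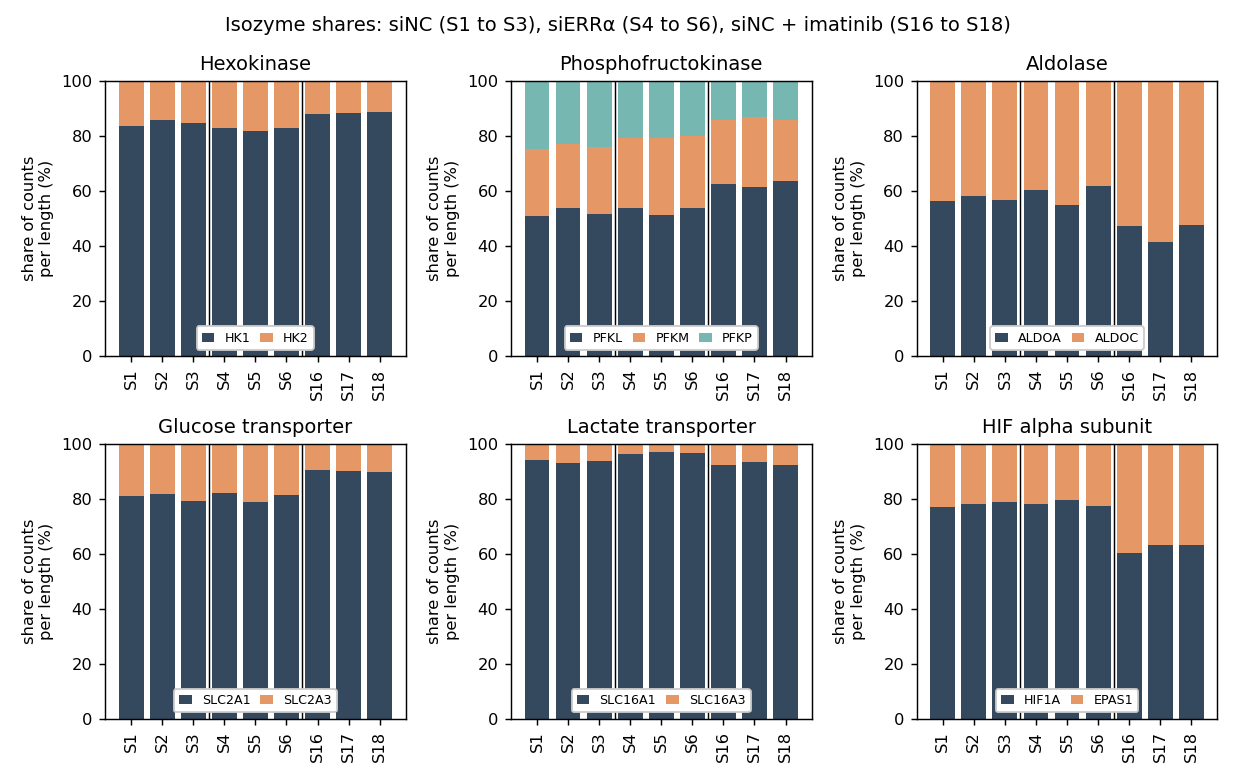
Share of each isozyme (y axis, percent of the family's counts per exon length) in each of the 9 libraries (x axis) for 6 gene families, with black lines between siNC, siERRα and imatinib. In the imatinib libraries the shares of PFKL (mean 62.5%), ALDOC (54.6%) and EPAS1 (37.8%) were larger than in siNC, and those of SLC2A3 (9.92%), HK2 (11.7%) and PFKP (13.8%) smaller.

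In the lower part of the pathway, imatinib lowered 3 of 6 genes and raised none (50% called, against 41.7% of all genes tested). Knockdown lowered PGAM1 and raised PGK1 (33.3%, against 23.9%). PGAM1, phosphoglycerate mutase (chr10:97426191-97433444), stood at 220, 245 and 217 CPM in siNC, 128, 131 and 135 CPM in siERRα and 193, 210 and 219 CPM with imatinib. The siERRα libraries lay below all 6 others, while imatinib and siNC overlapped. PGAM1 fell by 42.2% after knockdown (log2 fold change −0.79, standard error 0.0613, edgeR adjusted p = 2.23e-08), and the change with imatinib was −0.13 (edgeR adjusted p = 0.0877). PGAM4, an intronless near copy whose reads may be shared with PGAM1, averaged 1.26 CPM in siNC and 0.576 CPM in siERRα.

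PGK1, the first ATP-yielding enzyme of the pathway (chrX:77910739-78129295), moved in opposite directions in the 2 treatments. It stood at 668, 670 and 667 CPM in siNC, 747, 805 and 776 CPM in siERRα and 575, 624 and 622 CPM with imatinib, with no overlap between any 2 groups. The log2 fold change was 0.22 after knockdown (standard error 0.0523, edgeR adjusted p = 0.005) and −0.14 with imatinib (standard error 0.0524, edgeR adjusted p = 0.0409). The call with imatinib was lost without any 1 of S1, S2, S3 or S16, with edgeR adjusted p between 0.0706 and 0.137, and the groups differed from each other by 0.35 (edgeR adjusted p = 1.35e-05).

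GAPDH, the glyceraldehyde phosphate dehydrogenase often used as a reference gene, ranged from 2020 to 2249 CPM in siNC, from 2202 to 2344 CPM in siERRα and from 1676 to 1882 CPM with imatinib. Its fall with imatinib was −0.25 on the log2 scale (edgeR adjusted p = 0.00186). It has 65 listed pseudogenes, whose counts came to 3.68% of its own. ENO1, the main enolase, averaged 1336 ± 55.3 CPM in siNC and 1095 ± 70.7 CPM with imatinib (log2 fold change −0.29, edgeR adjusted p = 5.03e-04). PKM, pyruvate kinase, averaged 1266 CPM in siNC and siERRα and 1157 CPM with imatinib, where it missed the threshold in edgeR (adjusted p = 0.0607) and passed it in DESeq2 (adjusted p = 0.0475). ENO2, the neuronal enolase, averaged 2.26 CPM in siNC, made up 0.207% of enolase counts per length and passed neither test.

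**Figure D3:**
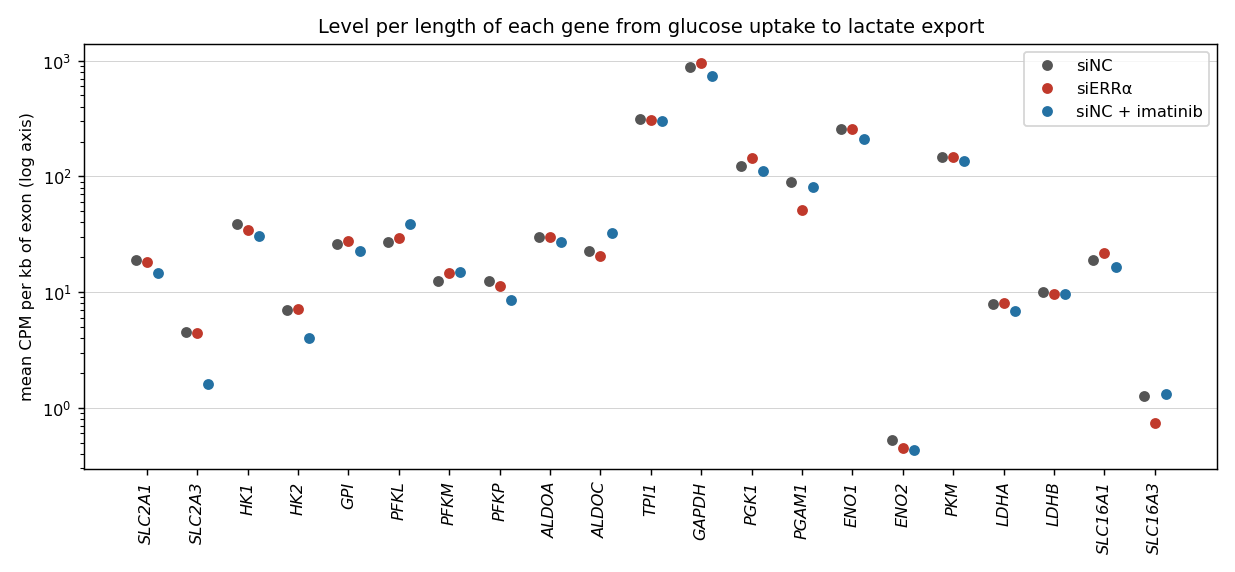
Mean level per length (y axis, CPM per kb of exon, log axis) of the transporters and enzymes in the order of the pathway (x axis) in siNC, siERRα and imatinib. The levels in siNC run from 878 CPM per kb for GAPDH to 0.527 for ENO2, PGAM1 drops from 89.5 to 51.7 in siERRα, and SLC2A3 drops from 4.56 to 1.61 with imatinib.

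Levels between genes were compared as CPM per kb of exon. In siNC the 6 genes with the highest level were GAPDH with 878, TPI1 with 315, ENO1 with 256, PKM with 148, PGK1 with 123 and PGAM1 with 89.5 CPM per kb. By canonical transcript length ENO1 (750.1 CPM per kb) came before TPI1 (629). After knockdown PGAM1 stood at 51.7 CPM per kb, still above HK1 with 34.1.

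Of the genes that make and move lactate, knockdown lowered the exporter and raised the other transporter. SLC16A3 (MCT4, a low-affinity lactate exporter of glycolytic cells, chr17:82217934-82261129) stood at 11.0, 12.5 and 11.7 CPM in siNC, 7.27, 6.37 and 6.69 CPM in siERRα and 12.9, 11.1 and 12.4 CPM with imatinib. All siERRα libraries lay below the other 6. It fell by 42.2% (log2 fold change −0.79, standard error 0.0946, edgeR adjusted p = 5.23e-06), and with imatinib the change was 0.05 (95% interval −0.15 to 0.24). SLC16A3 shares 482 exon bases with CSNK1D on the opposite strand, a gene with 61879 counts against its 3826, which changed by 0.06 after knockdown.

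SLC16A1 (MCT1, a transporter of lactate and pyruvate) ran from 112 to 124 CPM in siNC, from 130 to 149 CPM in siERRα and from 103 to 104 CPM with imatinib. Its log2 fold change was 0.20 after knockdown (edgeR adjusted p = 0.0255) and −0.20 with imatinib (edgeR adjusted p = 0.0151). The rise was lost without S2 (edgeR adjusted p = 0.122), S3 (0.0658) or S5 (0.105) and with the column number as a block (0.0502), and the fall was lost without S1 (0.0748) or S3 (0.0568). Of the lactate transporters' counts per exon length, SLC16A3 made up 6.37% ± 0.709 in siNC, 3.32% ± 0.433 in siERRα and 7.43% ± 0.539 with imatinib. By canonical transcript length these shares were 12.5%, 6.72% and 14.4%.

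LDHA, the lactate dehydrogenase subunit that HIF1 induces, averaged 47.7 ± 0.356 CPM in siNC and 41.3 ± 0.722 CPM with imatinib (log2 fold change −0.21, edgeR adjusted p = 0.0116). After knockdown it averaged 48.6 ± 2.68 CPM (log2 fold change 0.03, edgeR adjusted p = 0.803). LDHB, the heart-type subunit, passed neither test with all libraries. Its siERRα libraries stood at 24.2, 35.7 and 26.1 CPM, the second being S5, and without S5 LDHB was called lower after knockdown (log2 fold change −0.25, edgeR adjusted p = 0.0352). LDHB shares 997 exon bases with a second annotated gene on its strand.

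The PFKFB enzymes set the level of fructose 2,6-bisphosphate, the strongest activator of phosphofructokinase. PFKFB4 (chr3:48517684-48562015) stood at 7.02, 7.27 and 6.35 CPM in siNC, 8.13, 6.75 and 7.72 CPM in siERRα and 11.1, 9.26 and 11.5 CPM with imatinib. The imatinib libraries lay above the rest (log2 fold change 0.63, standard error 0.107, edgeR adjusted p = 1.11e-04). PFKFB3, a form with high kinase activity, went the other way with imatinib, from 21.6 ± 0.379 to 17.5 ± 1.02 CPM (log2 fold change −0.30, edgeR adjusted p = 0.00242). PFKFB2 averaged 25.5 CPM in both groups and changed by 0.00 (−0.003), and it shares 315 exon bases with YOD1, a gene with 44911 counts on the opposite strand that changed by −0.93 with imatinib. None of the 3 passed the test after knockdown, where their changes were 0.09, 0.12 and 0.13. Per exon length PFKFB4 made up 15.7% ± 1.03 of the family's counts in siNC and 24.4% ± 2.35 with imatinib.

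Both HIF alpha subunits fell after knockdown, and they parted with imatinib. EPAS1 (HIF2α, chr2:46293667-46386697) stood at 38.8, 36.2 and 36.5 CPM in siNC, 29.2, 27.3 and 29.0 CPM in siERRα and 66.3, 65.6 and 65.7 CPM with imatinib. The 3 groups did not overlap, with siERRα lowest and imatinib highest. The log2 fold change was −0.38 after knockdown (standard error 0.0627, edgeR adjusted p = 1.6e-04) and 0.83 with imatinib (standard error 0.0617, edgeR adjusted p = 4.58e-09).

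HIF1A (chr14:61695513-61748259) stood at 91.2, 90.6 and 94.9 CPM in siNC, 73.2, 75.0 and 70.2 CPM in siERRα and 71.5, 78.8 and 79.8 CPM with imatinib. Both treated groups lay below siNC and overlapped each other. The log2 fold change was −0.34 after knockdown (standard error 0.0597, edgeR adjusted p = 3.15e-04) and −0.27 with imatinib (standard error 0.0598, edgeR adjusted p = 0.00136), and the 2 treated groups differed by −0.07 (edgeR adjusted p = 0.32). As a share of both subunits' counts per exon length, EPAS1 took 22.2% ± 0.861 in siNC, 21.7% ± 1.12 in siERRα and 37.8% ± 1.56 with imatinib. HIF activity is controlled mainly at the protein level, which was not measured.

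EGLN3 (PHD3, a prolyl hydroxylase that is itself HIF-induced, chr14:33924227-34462774) stood at 67.3, 68.1 and 63.7 CPM in siNC, 47.1, 45.9 and 47.8 CPM in siERRα and 70.1, 78.1 and 83.9 CPM with imatinib. The order of the groups was that of EPAS1, without overlap. It fell by 29.3% after knockdown (log2 fold change −0.50, standard error 0.0672, edgeR adjusted p = 2.01e-05) and rose by 0.22 with imatinib (edgeR adjusted p = 0.0118), a call lost without S3 (0.0717) or S18 (0.0935). EGLN1 (PHD2, the main oxygen sensor) changed by −0.25 after knockdown (edgeR adjusted p = 0.0799) and by −0.09 with imatinib, and it shares 3004 exon bases with a second annotated gene. Without S1 its change after knockdown passed the test (edgeR adjusted p = 0.027).

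**Figure D4:**
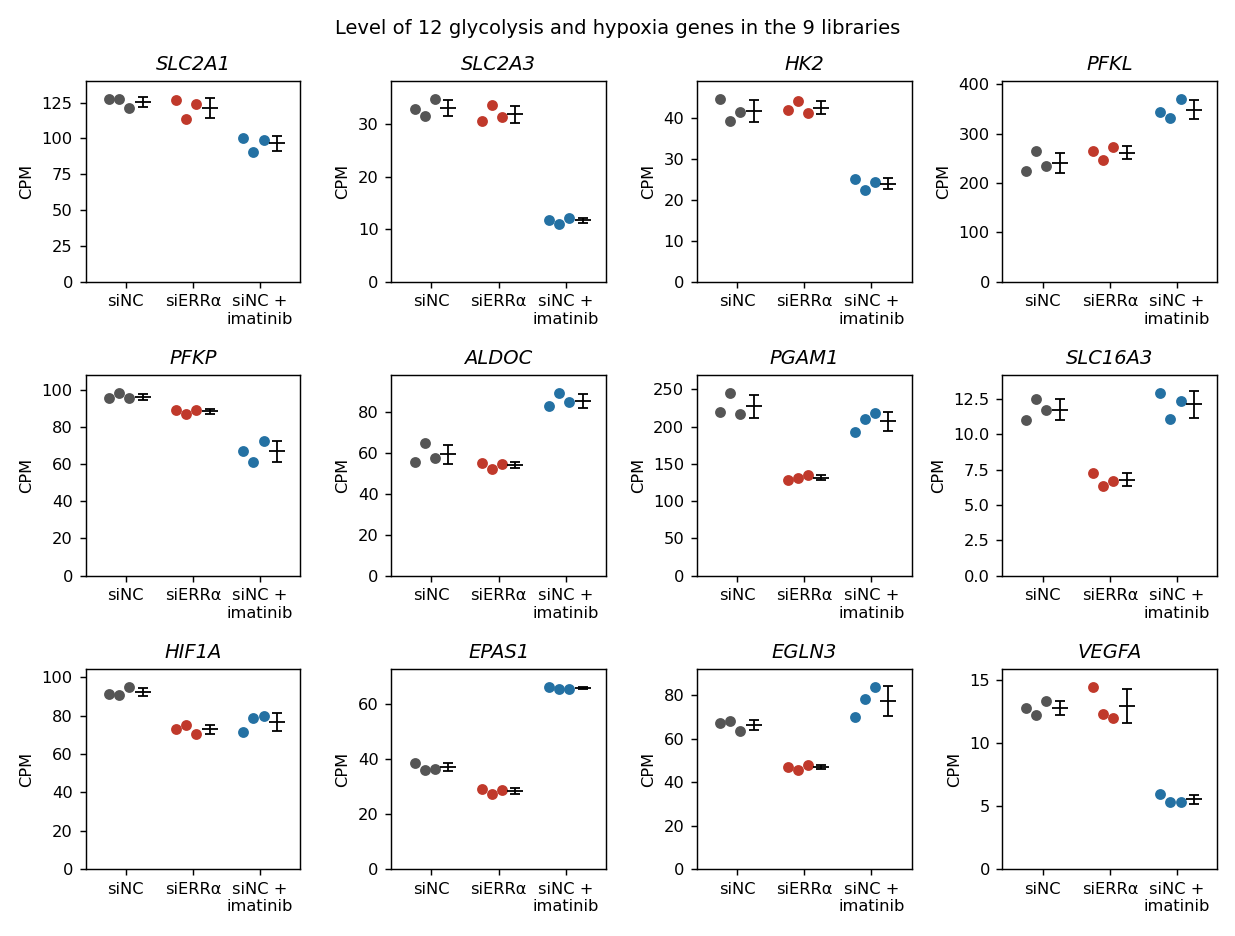
Level (y axis, CPM) of 12 members in each of the 9 libraries (points) by group (x axis), with mean and SD of 3 libraries beside them. PGAM1, SLC16A3 and EGLN3 are lowest in siERRα, SLC2A3, HK2 and VEGFA are lowest with imatinib, and PFKL, ALDOC and EPAS1 are highest with imatinib.

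Genes that HIF is known to induce moved in both directions with imatinib, where 2 of the 7 tested fell and 2 rose (57.1% called, against 41.7% of all genes tested). Knockdown raised 1 of the 7 (14.3%, against 23.9%). VEGFA, the angiogenic growth factor (chr6:43770184-43786487), stood at 12.8, 12.2 and 13.4 CPM in siNC, 14.4, 12.3 and 12.0 CPM in siERRα and 5.96, 5.33 and 5.33 CPM with imatinib. The imatinib libraries lay below all others, and siERRα overlapped siNC. VEGFA fell by 56.7% with imatinib (log2 fold change −1.21, standard error 0.0995, edgeR adjusted p = 1.63e-08), and the 95% interval after knockdown ran from −0.18 to 0.20. ADM, the vasodilator peptide adrenomedullin, stood at 10.9, 9.36 and 8.89 CPM in siNC and at 7.10, 6.46 and 6.50 CPM with imatinib (log2 fold change −0.54, edgeR adjusted p = 2.82e-04).

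BNIP3L (NIX, a receptor for the removal of mitochondria) rose with imatinib, from 21.4, 21.8 and 21.6 CPM in siNC to 30.3, 34.9 and 27.6 CPM. Its log2 fold change was 0.52 (standard error 0.0905, edgeR adjusted p = 1.39e-04). It shares 330 exon bases with PNMA2 on the opposite strand, which changed by 0.83 in the same direction, and the part of shared reads was not tested. BNIP3, a related mitophagy receptor, passed neither test (0.08 and −0.03). NDRG1, a stress-induced growth regulator, averaged 105 ± 5.38 CPM in siNC and 124 ± 5.36 CPM with imatinib (log2 fold change 0.24, edgeR adjusted p = 0.00518).

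KDM3A, a histone demethylase induced in hypoxia, ran from 43.1 to 46.5 CPM in siNC, from 49.5 to 56.0 CPM in siERRα and from 37.0 to 41.7 CPM with imatinib. The groups did not overlap, but the log2 fold change of 0.21 after knockdown (edgeR adjusted p = 0.0346) was no longer called without any 1 of S1, S2, S3, S5 or S6 (edgeR adjusted p between 0.0624 and 0.124) or with the column number as a block (0.0622). ANKRD37, another HIF-induced gene, had 224 counts in all, with a standard error of 0.344 after knockdown, and a change of moderate size was not detectable at this depth. It overlaps UFSP2, which had 8561 counts. CA9 had from 0 to 3 counts per library, so a difference was not detectable.

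Beyond the 36 genes, 20 of 39 other genes of glycolysis and sugar transport were tested. After knockdown 3 were lower and 0 higher, and with imatinib 2 were lower and 6 higher. These are 15% and 40% of those tested, against 23.9% and 41.7% of all genes. SLC2A10 (GLUT10, a transporter of the endomembranes) averaged 40.6 ± 1.06 CPM in siNC, 29.6 ± 1.62 CPM in siERRα and 63.4 ± 1.66 CPM with imatinib, with log2 fold changes of −0.46 (edgeR adjusted p = 3.31e-05) and 0.64 (edgeR adjusted p = 1.57e-07). BSG (basigin, which escorts the lactate transporters to the membrane) changed by 0.01 after knockdown and rose by 0.46 with imatinib (edgeR adjusted p = 1.66e-06). PGAM5, a mitochondrial phosphatase, fell by 0.37 with imatinib. SLC2A4, the insulin-responsive transporter, rose by 1.30 with imatinib from 0.601 to 1.48 CPM. EMB (embigin, another partner of lactate transporters) fell by 0.21 after knockdown, PGAM4 fell by 1.15, and SLC2A5, the fructose transporter, had 78 counts and passed neither test.

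Of the genes around HIF itself, 17 of 18 were tested, of which knockdown lowered 1 and raised 3, and imatinib lowered 1 and raised 5. The shares called, 23.5% and 35.3%, were near or below the 23.9% and 41.7% of all genes. ARNT (HIF1β, the partner that HIF alpha needs to bind DNA) averaged 40.8 ± 0.418 CPM in siNC, 29.6 ± 0.302 CPM in siERRα and 51.7 ± 1.11 CPM with imatinib. Its log2 fold changes of −0.47 (edgeR adjusted p = 1.27e-05) and 0.34 (edgeR adjusted p = 1.4e-04) had the signs of those of EPAS1. VHL, which tags hydroxylated HIF alpha for breakdown, rose by 0.42 after knockdown (edgeR adjusted p = 0.00319), as did SIAH1, a ubiquitin ligase (0.30), and EP300, a coactivator of HIF (0.32). With imatinib OS9, a lectin of endoplasmic reticulum quality control, rose from 60.1 to 189 CPM (log2 fold change 1.65, edgeR adjusted p = 3.5e-12). ARNT2, a relative of ARNT, rose by 0.74 and CITED2, a HIF antagonist, by 0.32, while ELOC, a part of the VHL complex, fell by 0.48.

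Of 45 further HIF targets 43 were tested. Knockdown lowered 10 and raised 5 (34.9% called, against 23.9% of all genes), and imatinib lowered 14 and raised 11 (58.1%, against 41.7%). FLT1, a receptor for VEGFA, averaged 537 ± 28.3 CPM in siNC and 365 ± 29.5 CPM in siERRα (log2 fold change −0.56, edgeR adjusted p = 2.13e-06) and changed by 0.01 with imatinib. TMEM45A fell by 0.66 after knockdown and WSB1, a ubiquitin ligase subunit, rose by 0.36. VLDLR, a lipoprotein receptor, fell by 0.71 after knockdown and rose by 0.83 with imatinib. BHLHE40, a circadian repressor, fell by 1.42 with imatinib (edgeR adjusted p = 2.35e-10) and DDIT4, an inhibitor of mTORC1, by 1.01 (edgeR adjusted p = 1.36e-08).

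At the entry of pyruvate into mitochondria, all 14 genes listed were tested, of which 5 were lower and 3 higher in each comparison with siNC (57.1% called, against 23.9% and 41.7% of all genes). PDHX, a structural part of pyruvate dehydrogenase, averaged 52.2 ± 1.75 CPM in siNC, 80.9 ± 5.66 CPM in siERRα and 37.5 ± 0.292 CPM with imatinib, with log2 fold changes of 0.63 (edgeR adjusted p = 6.05e-07) and −0.48 (edgeR adjusted p = 8.41e-06). PDHB, a subunit of its catalytic part, fell by 0.42 after knockdown and by 0.23 with imatinib. PDK4, a kinase that shuts the enzyme off, rose from 0.302 CPM to 0.843 CPM after knockdown and to 1.26 CPM with imatinib, on 293 counts in all (log2 fold changes 1.49 and 2.07, edgeR adjusted p = 0.00127 and 1.41e-05). PDK2 and PDK3, kinases of the same family, rose by 0.76 and 0.43 with imatinib, and PC, pyruvate carboxylase, rose by 0.31 after knockdown.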

How the data were processed

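By the submitters' processing notes, the authors used STAR 2.7.3a to align the paired reads to GRCh38 and featureCounts 2.0.1 to count reads by gene. The deposited values are raw counts, and the annotation release, strand setting and treatment of reads that map to several places or overlap several genes are not stated there or in the paper. Groups came from the labels. A deposited table of group labels was not used.

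Genes were kept by filterByExpr (minimum count 10, minimum total 15) and libraries scaled by TMM. For the main test, edgeR 4.0.16 (R 4.3.3) fitted a robust quasi-likelihood model to all 9 libraries at once, group as the only term and Benjamini-Hochberg adjustment over 16976 genes. A standard error is the fold change divided by the root of its F. CPM use TMM-normalized totals, and their SD covers 3 libraries. Lengths, positions and 3′ UTRs are from GENCODE 44. Python 3.11.15, numpy 2.4.6, pandas 2.3.3 and matplotlib 3.10.9 served for sequences and figures.

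The alternatives were DESeq2 size factors, DESeq2 1.42.0, limma-voom (limma 3.58.1), no low-count filter, a minimum of 10 counts in each library, separate fits of the 6 libraries of a comparison, counts thinned to the smallest total, the column number as a block, a log2 threshold of 0.5 and each library left out. Data were simulated for siERRα against siNC with 16676 genes, and changes were planted only in genes above a minimum mean level. Of these, edgeR called 93% of 100 changed by 0.5 and 100% of 100 changed by 1 on the log2 scale. It made 14 false calls. These shares do not cover genes as low as ENO2 or ANKRD37. Far fewer genes were changed in the simulation than the 4064 called after knockdown. No simulated library was made to stand apart as S5 does, so the shares and the false calls may not carry over to the data.

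Text names every member, ESRRA, and up to 4 genes with the smallest p in each of the 2 comparisons with siNC from each of 6 lists. The result of 1 of these genes is not reported here. Marker genes, overlapping genes and near copies are named where they bear on a value. Members and lists were chosen with earlier results of these data known.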

Additional observations from a re-analysis of the deposited data

How the results depend on the processing

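With a log2 change of at least 0.5 required, the lower members after knockdown went from 6 to 3 and the higher from 4 to 0. Those with imatinib went from 15 to 5 and from 8 to 5. Members lower in siERRα than with imatinib went from 9 to 6 and the higher from 15 to 3. In that comparison 15.7% of genes tested were lower and 10.6% higher past both limits. The column number as a replicate block left 2 of the 4 higher members after knockdown (SLC16A1 and KDM3A missed the threshold) and, of single members, also took PGK1 with imatinib (edgeR adjusted p = 0.053). It changed no other member's call. Whether these numbers pair the libraries is not known, since the columns are numbered 1 to 3 but the sample titles all carry the number 1. Deviations of same-numbered libraries correlated with r between −0.1 and 0.147, and those of other libraries with r between −0.133 and 0.093. Leaving out 1 library gave 2 to 4 higher members after knockdown, with 2 left without S2, S3 or S5. No member's direction reversed among those called. Over the 35 members and 17 alternatives, 582 of the results after knockdown kept direction and side of the threshold, 10 lost and 3 gained a call. With imatinib the numbers were 574, 10 and 11, and between siERRα and imatinib 588, 1 and 6. HK1 between siERRα and imatinib was lost without S17 (edgeR adjusted p = 0.0962). With imatinib KDM3A was called under 7 alternatives (adjusted p between 0.0254 and 0.048), PKM was called by DESeq2 and limma-voom and without S5 or S18, and PGK1 was lost without the low-count filter (edgeR adjusted p = 0.0671). EGLN1 after knockdown was called without that filter (edgeR adjusted p = 0.0468). Other causes of these changes were not tested. No scaling moved the median of all genes by more than 0.02. Depth limits ENO2, ANKRD37, CA9 and PDK4, and overlapping genes or near copies limit ALDOA, LDHB, EGLN1, PFKFB2 and SLC16A3.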

Other observations

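Branches that leave glycolysis were also measured. Of 29 genes of the pentose phosphate, serine, hexosamine, glycogen, polyol and glycerol phosphate routes, 28 were tested, of which knockdown lowered 4 and raised 8 (42.9% called, against 23.9% of all genes) and imatinib lowered 9 and raised 7 (57.1%, against 41.7%). UGP2, which makes UDP-glucose, averaged 156 ± 12.0 CPM in siNC and 89.2 ± 12.1 CPM in siERRα (n = 3 each, log2 fold change −0.81, edgeR adjusted p = 1.39e-06). PGM1, which joins glycogen to glycolysis, averaged 23.7 ± 1.61 CPM in siNC, 14.8 ± 1.16 CPM in siERRα and 38.8 ± 0.489 CPM with imatinib, so that it fell by 0.68 on the log2 scale after knockdown (edgeR adjusted p = 3.07e-06) and rose by 0.71 with imatinib (edgeR adjusted p = 3.32e-07). PYGL, the liver glycogen phosphorylase, had changes of −0.70 (edgeR adjusted p = 5.19e-06) and 0.29 (edgeR adjusted p = 0.00674), and PYGB, the brain form, of 0.17 (edgeR adjusted p = 0.0291) and 0.31 (edgeR adjusted p = 2.17e-04). GYS1, glycogen synthase, and GBE1, the glycogen branching enzyme, passed neither test, with changes after knockdown of 0.14 (edgeR adjusted p = 0.128) and −0.10 (edgeR adjusted p = 0.411). Both are named here after their values were seen. AKR1B1, the aldose reductase of the polyol route, rose by 0.34 after knockdown (edgeR adjusted p = 1.1e-04). UAP1 of the hexosamine route and PSAT1 of serine synthesis fell by 0.53 and 0.37 with imatinib and changed by 0.02 and 0.09 after knockdown.

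Among 11 genes that sense glucose or nutrients, knockdown lowered 3 and raised 1, and imatinib lowered 4 and raised 5 (36.4% and 81.8% called, against 23.9% and 41.7% of all genes). TXNIP, a glucose-induced brake on glucose uptake, averaged 214 ± 3.77 CPM in siNC, 185 ± 5.62 CPM in siERRα and 290.2 ± 25.0 CPM with imatinib (log2 fold changes −0.21 and 0.44, edgeR adjusted p = 0.0163 and 8.42e-06). ARRDC4, its close relative, averaged 31.7 CPM in siNC and rose by 0.76 with imatinib (edgeR adjusted p = 4.83e-07). MLXIP, a glucose-sensing transcription factor, rose in both comparisons, by 0.39 (edgeR adjusted p = 3.09e-04) and 0.43 (edgeR adjusted p = 4.59e-05), and its partner MLX fell by 0.43 with imatinib (edgeR adjusted p = 3.08e-05). SESN2, a leucine sensor, was lower in both by 0.29 and 0.34, and MYC, which induces glycolytic genes, fell by 0.51 after knockdown (edgeR adjusted p = 0.00685) on 1809 counts in all. PPARGC1B, a coactivator of ERRα, fell by 0.78 with imatinib (edgeR adjusted p = 2.21e-05).

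MIF, a cytokine on the list of HIF targets, had 14 counts in all libraries together and P4HTM, a membrane prolyl hydroxylase, 1 count. MIF shares 357 exon bases with another annotated gene on its strand, and P4HTM shares 92 with WDR6, which had 32858 counts.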
